A study of Mus musculus and Homo sapiens with 34 samples.

Results

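The interstitial collagens I, III, V, VI and XII are encoded by 10 genes, COL1A1, COL1A2, COL3A1, COL5A1, COL5A2, COL5A3, COL6A1, COL6A2, COL6A3 and COL12A1. They were taken by gene symbol, ignoring case, from the 55450 genes of a mouse count table and the 58870 genes of a human one, and all 10 were found in each. Their mRNA was followed in spheroids of 3 colorectal carcinoma cell lines, the mouse lines CT26 and MC38 and the human line HT29, grown either with decellularised SIS ECM or without it. Members with too few reads to be tested are named in each line, since no line expressed all 10.

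Collagen chains are made as procollagens that are hydroxylated, folded into a helix of 3 chains and exported before their propeptides are cut off. Collagen I pairs alpha 1 with alpha 2 chains in the thick fibrils of skin, tendon and tumour stroma, collagen III is its thinner partner in distensible tissues such as gut wall, and collagen V starts and limits the growth of collagen I fibrils. Collagen VI forms beaded filaments that link fibrils to cells, and collagen XII is a fibril-associated collagen that coats their surface. In intestine and in colorectal tumours these proteins are known mainly as products of fibroblasts.

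Cultures with SIS ECM, which the series calls MatriSpheres, numbered 6 libraries in CT26, 5 in MC38 and 6 in HT29, and spheroids of cells alone numbered 6, 5 and 6 in the same order of lines. The cells grew in RPMI with serum in U-bottom plates of ultra-low attachment, and polyA RNA was taken at day 7 from tubes of 10 pooled spheroids. SIS ECM is a decellularised matrix (SIS usually stands for small intestinal submucosa), and the cultures hold only the carcinoma line and this added matrix, so no fibroblasts, vessels or leukocytes were supplied. Whether the libraries of a group are separate cultures is not stated in the labels, so p-values measure the spread between libraries, which may be technical.

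Library totals (in 1e6 counts) ran from 15.8 to 24.2 in mouse and from 25.5 to 37.0 in human. The 8 epithelial markers were all present in HT29. In MC38 all 8 averaged below 1 CPM (counts per 1e6 counts of a library) in both cultures. In CT26 6 of the 8 did so, and the keratin genes Krt20 (50.9 CPM with SIS ECM, 43.6 CPM in cells alone) and Krt18 (14.8 and 6.84 CPM) were expressed, while Epcam was at 0 in every CT26 and MC38 library. The 8 fibroblast markers summed to 2830 to 3200 CPM with SIS ECM and 2880 to 3440 CPM in cells alone in MC38, to 806 to 1610 and 1060 to 1630 CPM in CT26, and to 485 to 658 and 483 to 540 CPM in HT29. S100a4, which is not confined to fibroblasts, made up most of the sum in CT26 (1110 CPM with SIS ECM, 1260 CPM in cells alone) and nearly all of it in HT29 (571 and 510 CPM), where the other 7 were below 0.06 CPM. MC38 also held the receptor gene Pdgfra (482 CPM with SIS ECM, 475 CPM in cells alone) and the decorin gene Dcn (1080 and 1140 CPM); these averaged 24.3 and 17.5 CPM and 3.78 and 2.40 CPM in CT26. Thy1 was at 0 in both mouse lines. Endothelial markers summed to at most 5.52 CPM and smooth muscle markers to at most 0.813 CPM in any mouse library.

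The lines differed widely in how much of this collagen mRNA they held before any matrix was added. The 10 genes together took 0.769 ± 0.151% of all counts in MC38 cells alone (SD, n = 5) and 0.062 ± 0.013% in CT26 cells alone (SD, n = 6), and 0.00021 ± 5.87e-05% in HT29 cells alone (SD, n = 6). The range in MC38 cells alone was 0.567 to 0.905%, in CT26 0.0491 to 0.0804% and in HT29 0.000158 to 0.000293%, so the 3 lines did not overlap. With SIS ECM the share was 0.426 to 0.637% in MC38, 0.0397 to 0.0737% in CT26 and 0.00017 to 0.000325% in HT29. Only in MC38 cells alone did any library exceed 0.637%.

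**Figure D1:**
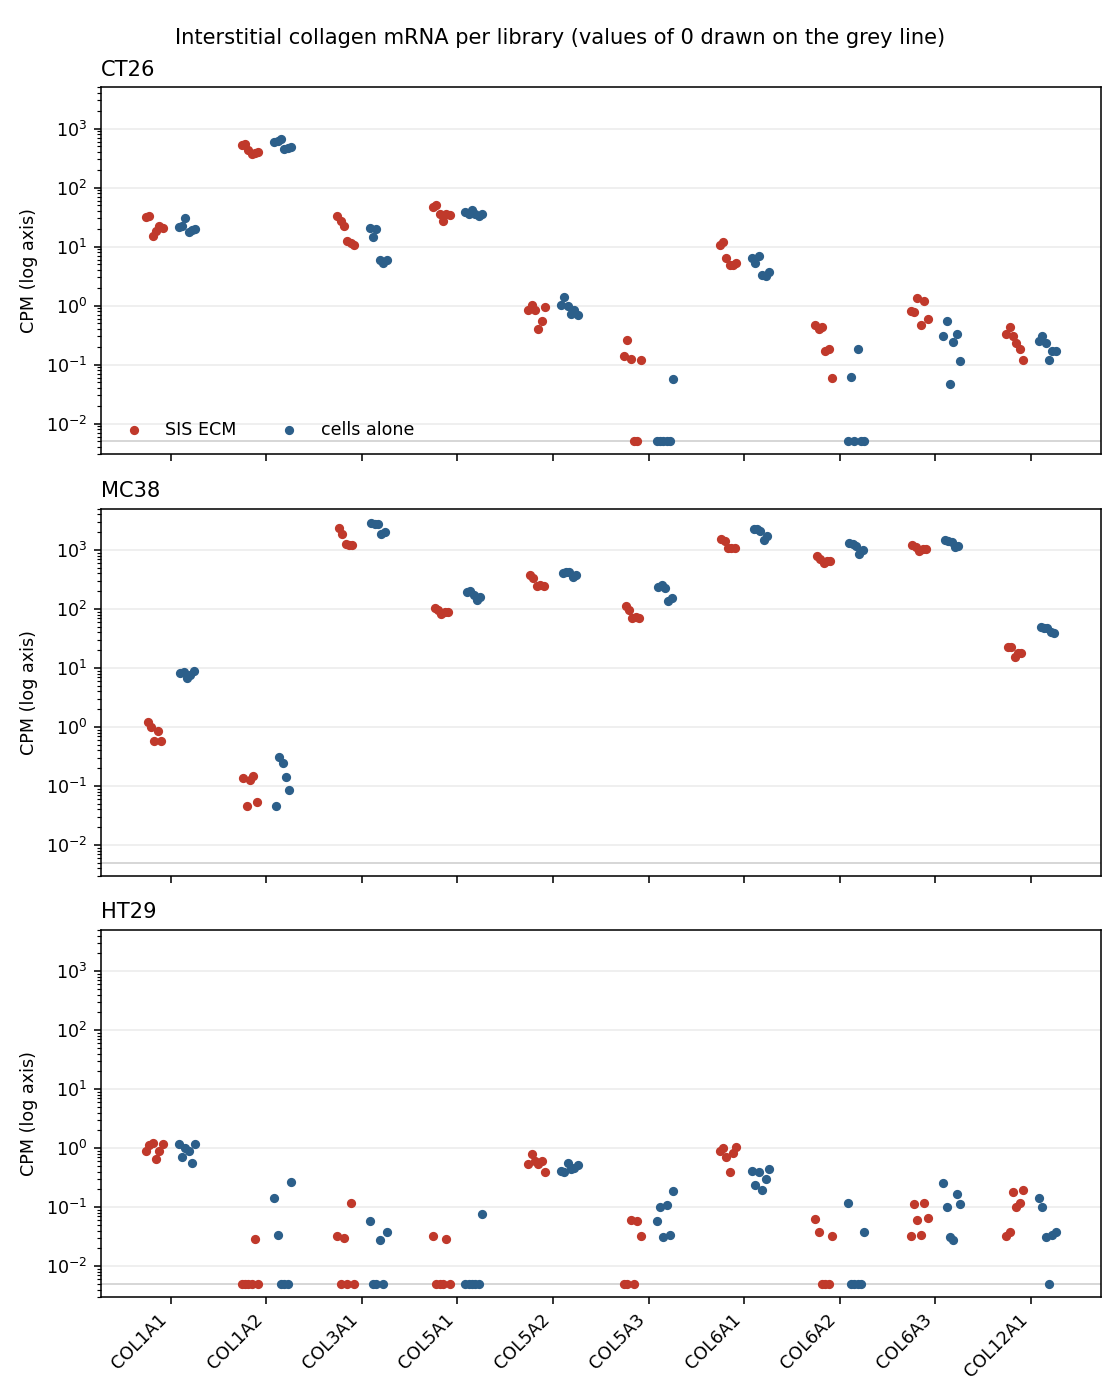
CPM on a log axis for each of the 10 collagen genes in every library of CT26, MC38 and HT29, with SIS ECM libraries (red) left of cells-alone libraries (blue) and values of 0 on the grey line. MC38 libraries lie above 10 CPM for all genes but Col1a1 and Col1a2, CT26 is led by Col1a2, and no HT29 library exceeds 1.22 CPM for any of the genes.

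Levels of different genes were compared only after division by exon length, in the mouse lines, as CPM per kb of annotated exon. In MC38 cells alone the order of these length-scaled levels was Col6a1 (446 ± 83.0 CPM per kb, SD, n = 5), Col3a1 (247 ± 48.1), Col6a2 (133 ± 22.3), Col6a3 (109 ± 13.1), Col5a2 (41.0 ± 3.13), Col5a3 (29.5 ± 7.92), Col5a1 (20.5 ± 2.83), Col12a1 (2.94 ± 0.325), Col1a1 (1.22 ± 0.129) and Col1a2 (0.0132 ± 0.0089). Neighbours whose library ranges overlapped were Col6a2 and Col6a3, Col5a2 and Col5a3, and Col5a3 and Col5a1. In CT26 cells alone the order was Col1a2 (43.7 ± 7.16 CPM per kb, SD, n = 6), Col5a1 (4.30 ± 0.383), Col1a1 (3.30 ± 0.693), Col3a1 (1.23 ± 0.745) and Col6a1 (1.09 ± 0.38), and the other members were below 0.15 CPM per kb in every library. Col5a1 and Col1a1 overlapped there, as did Col3a1 and Col6a1. Collagen VI and III chains thus headed the list in MC38 and the alpha 2 chain of collagen I headed it in CT26, in both cultures of each line.

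**Figure D2:**
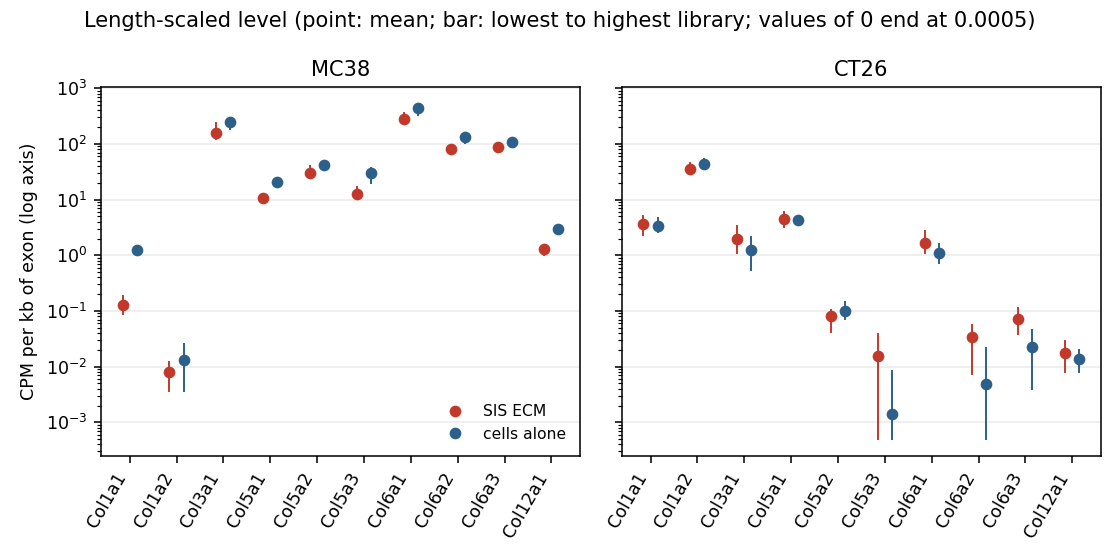
CPM per kb of exon on a log axis for the 10 genes in MC38 and CT26, as the mean (point) and the lowest to highest library (bar), with SIS ECM (red) left of cells alone (blue). Col6a1 is highest in MC38 and Col1a2 is highest in CT26, while Col1a2 is the lowest of the 10 in MC38.

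Set against CT26 cells alone, MC38 cells alone differed in all 10 genes (edgeR's quasi-likelihood test, Benjamini-Hochberg adjusted p below 0.05), in a comparison in which 78.1% of all genes tested passed. Of these, 8 were higher in MC38 and 2 lower. Col1a1, the alpha 1 chain of collagen I, averaged 7.98 ± 0.845 CPM in MC38 (SD, n = 5) and 21.7 ± 4.55 CPM in CT26 (SD, n = 6), a log2 difference of −1.62 ± 0.18 (SE; adjusted p = 3.33e-08). Its partner Col1a2 had 1 to 7 counts per MC38 library against 7370 to 14180 per CT26 library. Per kb of exon, the collagen I chains were thus unequal in level in both lines, with Col1a1 the higher in MC38 and Col1a2 the higher in CT26. The collagen VI gene Col6a1 was higher in MC38 by 8.48 ± 0.24 on the log2 scale (SE; adjusted p = 2.98e-18), Col3a1 by 7.46 ± 0.35 (7.32e-14), Col5a2 by 8.52 ± 0.20 (3.62e-22) and Col5a1 by 2.07 ± 0.13 (3.32e-13). Col5a3, Col6a2, Col6a3 and Col12a1 had 2925 to 5729, 18469 to 28986, 23749 to 32432 and 863 to 1112 counts per MC38 library, against at most 1, 3, 9 and 5 per CT26 library, so their ratios rest on counts near 0.

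In the mouse genome (GRCm38, GENCODE annotation), Col3a1 and Col5a2 are neighbours on chromosome 1, at 45311538 to 45349706 on the plus strand and 45374321 to 45503282 on the minus strand, and Col6a3 lies farther along it at 90765923 to 90843971 on the minus strand. Col6a1 (76708792 to 76726168) and Col6a2 (76595762 to 76623630) are neighbours on chromosome 10, both on the minus strand. Col1a1 lies on chromosome 11 at 94936224 to 94953042 and Col1a2 on chromosome 6 at 4504814 to 4541544, both on the plus strand. Col5a1 lies on chromosome 2 at 27886425 to 28039514 on the plus strand, and Col5a3 and Col12a1 on chromosome 9, at 20770050 to 20815067 and 79598991 to 79718831, both on the minus strand. Counts are per gene, so single exons are not told apart. Col3a1 was the one member whose deposited counts were not all whole numbers, as happens when reads are divided between features. Genes on the opposite strand overlap Col5a1, Col5a3 and Col12a1. Since no source used here states whether counting used strand, reads of those partners cannot be told apart from reads of these members. On the same strand, Gm43921 overlaps Col1a2, Gm47302 overlaps Col3a1, Gm38211 overlaps Col5a2 and Gm36970 overlaps Col6a3. Strand does not separate these pairs, and the part of the overlapping genes in the counts was not tested.

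Promoter windows from 250 bases before to 50 after an annotated start (RefSeq, GRCm38.p6) were on hand for 7 of the 10 members, as 8 windows (Col6a2 has a pair of overlapping ones). They were searched on both strands for the CCAAT box (CCAAT or ATTGG), the GC box (GGGCGG or CCGCCC) and a TATA element (TATAAA or TTTATA). The windows of 4 members are shown because these genes stand at the extremes of the results: Col1a2, abundant in CT26 and near 0 in MC38; Col3a1 and Col6a1, the most abundant of their kinds in MC38; and Col5a1, which is expressed in both mouse lines and fell in MC38. Capitals mark any of these motifs, and the sequences run 5′ to 3′ on the gene's strand.
Col1a2, chr6:4505368-4505667, plus strand: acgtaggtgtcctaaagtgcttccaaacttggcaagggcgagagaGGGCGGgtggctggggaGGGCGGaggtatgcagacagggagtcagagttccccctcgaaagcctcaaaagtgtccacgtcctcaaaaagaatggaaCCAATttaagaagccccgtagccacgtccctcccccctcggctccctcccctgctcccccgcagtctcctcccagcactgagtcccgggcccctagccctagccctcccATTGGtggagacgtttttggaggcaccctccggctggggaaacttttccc
Col3a1, chr1:45311288-45311587, plus strand: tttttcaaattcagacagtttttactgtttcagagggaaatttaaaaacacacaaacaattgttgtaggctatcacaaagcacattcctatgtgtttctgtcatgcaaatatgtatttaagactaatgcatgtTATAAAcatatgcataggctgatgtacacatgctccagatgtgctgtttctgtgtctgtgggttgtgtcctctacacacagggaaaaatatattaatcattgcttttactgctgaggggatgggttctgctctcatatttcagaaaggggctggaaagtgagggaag
Col5a1, chr2:27886175-27886474, plus strand: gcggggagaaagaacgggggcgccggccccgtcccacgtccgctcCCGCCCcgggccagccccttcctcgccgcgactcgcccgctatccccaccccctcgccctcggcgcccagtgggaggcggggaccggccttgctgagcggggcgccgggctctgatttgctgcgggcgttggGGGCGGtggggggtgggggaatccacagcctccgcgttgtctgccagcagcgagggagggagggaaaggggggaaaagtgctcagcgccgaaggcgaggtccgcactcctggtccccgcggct
Col6a1, chr10:76725995-76726294, minus strand: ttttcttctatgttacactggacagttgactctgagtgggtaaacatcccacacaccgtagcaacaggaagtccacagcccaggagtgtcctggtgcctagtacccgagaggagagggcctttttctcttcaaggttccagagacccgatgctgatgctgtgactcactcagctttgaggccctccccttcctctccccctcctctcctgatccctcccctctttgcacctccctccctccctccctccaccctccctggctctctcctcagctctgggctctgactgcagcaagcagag
The Col1a2 window held 2 CCAAT boxes (109 and 0 bases before the start) and 2 GC boxes (205 and 188 bases before it). That of Col5a1 held 2 GC boxes (205 and 73 bases before), that of Col3a1 1 TATAAA (117 bases before) and that of Col6a1 none of the motifs. The Col1a2 window begins inside the GENCODE span of the gene given above. Among the 8 member windows, 2 held a CCAAT box, 5 a GC box and 1 a TATA element, beside 37.4, 35.7 and 13.6% of all 32851 promoter windows in the table. GC content was 37.7% in the Col3a1 window and 75.0% in that of Col5a1. A match here is a run of letters, and occupancy of these windows was not measured.

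In MC38, most of the interstitial collagens were lower with SIS ECM. Of the 10 genes, 9 had enough counts to be tested, and 7 of these fell and 0 rose with SIS ECM, where 5.36% of all 13146 genes tested fell and 3.82% rose (9.17% changed in either direction). The median log2 fold change of the 9 was −0.72, against 0.006 over all genes tested. In bulk libraries, fewer expressing cells and less RNA per cell cannot be told apart. The libraries of the 2 cultures did not overlap for 5 of the 9, where 9.66% of all tested genes did not overlap.

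Among the fibrillar chains in MC38, Col1a1 fell most. It measured 1.21, 1.01, 0.584, 0.846 and 0.58 CPM in SIS ECM libraries 1, 3, 4, 5 and 6, against 8.25, 8.35, 6.78, 7.53 and 8.98 CPM in cells-alone libraries 1 to 5. Every SIS ECM library lay far below every cells-alone library, and the mean of 0.845 ± 0.272 CPM with SIS ECM and 7.98 ± 0.845 CPM in cells alone (SD, n = 5 each) gave a log2 fold change of −3.23 ± 0.19 (SE; adjusted p = 1.74e-06). These are 11 to 27 counts per SIS ECM library, so this gene was at once the most changed and one of the least abundant. Its partner Col1a2, the alpha 2 chain, had 1 to 3 counts with SIS ECM and 1 to 7 in cells alone and was not tested.

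The collagen V chains, which set the diameter of collagen I fibrils, all fell in MC38. Col5a3 measured 113, 96.9, 70.1, 73.4 and 70.8 CPM in SIS ECM libraries 1, 3, 4, 5 and 6, against 238, 255, 225, 136 and 150 CPM in cells-alone libraries 1 to 5. The groups did not overlap, although cells-alone libraries 4 and 5 were well below the other 3, and the log2 fold change was −1.24 ± 0.19 (SE; adjusted p = 0.00213). Col5a1 averaged 91.8 ± 9.04 CPM with SIS ECM and 174 ± 24.0 CPM in cells alone (SD, n = 5 each), ranging from 82.1 to 105 and from 141 to 200 CPM, with a log2 fold change of −0.92 ± 0.10 (SE; adjusted p = 0.000147). Col5a2 measured 378, 331, 245, 249 and 242 CPM with SIS ECM against 402, 413, 424, 348 and 381 CPM in cells alone, so that 4 of 5 SIS ECM libraries lay below all cells-alone libraries. Its log2 fold change was −0.45 ± 0.12 (SE; adjusted p = 0.0395), and the call was lost in 7 of the 10 fits that left out 1 library, with an adjusted p of up to 0.0928 (without SIS ECM library 4).

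Col3a1, the chain of collagen III and the most heavily counted of the 10, was lower with SIS ECM on average but missed the threshold. It measured 2327, 1878, 1237, 1210 and 1216 CPM in SIS ECM libraries 1, 3, 4, 5 and 6, against 2796, 2795, 2720, 1831 and 2005 CPM in cells-alone libraries 1 to 5. SIS ECM libraries 1 and 3 reached the level of cells-alone libraries 4 and 5, and the log2 fold change was −0.63 ± 0.20 (SE; adjusted p = 0.0652). With the replicate number as a block, which uses the 8 libraries whose numbers occur in both cultures, it was −0.52 ± 0.09 (SE; adjusted p = 0.00548) and passed. Leaving out SIS ECM library 1 (adjusted p = 0.0156) or cells-alone library 4 (0.0337) also brought it past the threshold.

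The chains of collagen VI, whose filaments are built from alpha 1, alpha 2 and an alpha 3 or similar chain, were, with Col3a1, the 4 highest of the 10 in MC38 per kb of exon. Col6a2 averaged 676 ± 65.8 CPM with SIS ECM and 1110 ± 186 CPM in cells alone (SD, n = 5 each), and its libraries did not overlap, at 610 to 776 CPM against 858 to 1300 CPM. Its log2 fold change was −0.72 ± 0.11 (SE; adjusted p = 0.00288). Col6a1 measured 1554, 1394, 1079, 1073 and 1071 CPM with SIS ECM against 2283, 2231, 2100, 1449 and 1695 CPM in cells alone, a log2 fold change of −0.66 ± 0.15 (SE; adjusted p = 0.0156). One SIS ECM library, number 1, exceeded the lowest cells-alone library. Col6a3, the large alpha 3 chain, averaged 1070 ± 88.8 CPM with SIS ECM and 1300 ± 157 CPM in cells alone (SD, n = 5 each), a log2 fold change of −0.28 ± 0.09 (SE; adjusted p = 0.0798) that did not pass.

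Col12a1, the fibril-associated collagen XII, fell in MC38 with no overlap between cultures. It measured 22.7, 23.0, 15.2, 18.1 and 18.1 CPM in SIS ECM libraries 1, 3, 4, 5 and 6, against 49.9, 47.4, 47.5, 40.1 and 38.8 CPM in cells-alone libraries 1 to 5. The log2 fold change was −1.20 ± 0.11 (SE; adjusted p = 8.19e-05). Low and high values thus followed the culture in this gene, with libraries numbered 4 to 6 the lower ones in each group.

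**Figure D3:**
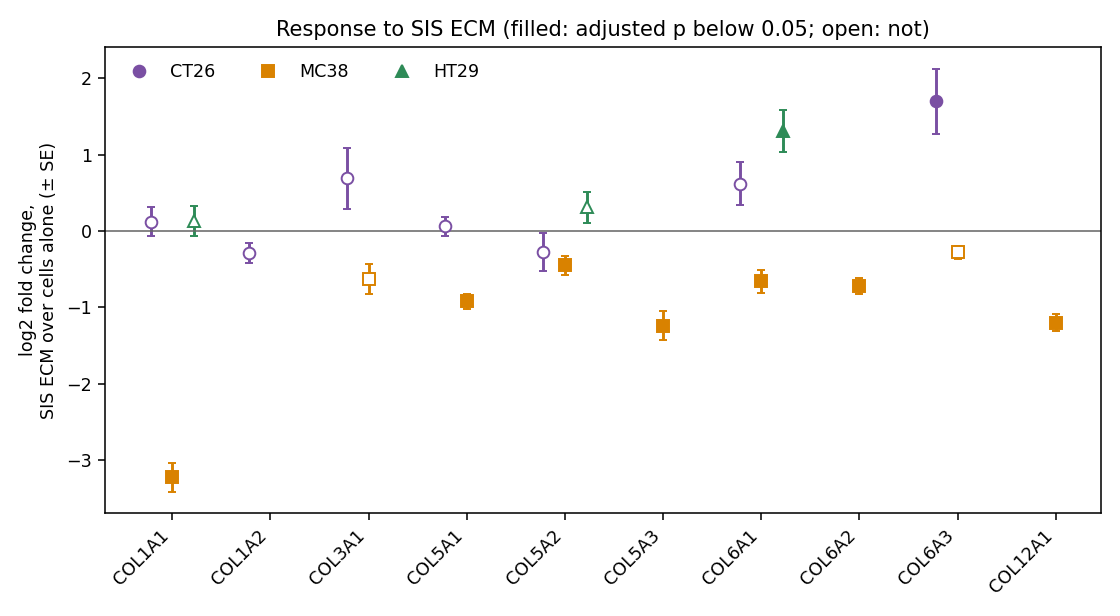
Log2 fold change of SIS ECM over cells alone ± SE for each collagen gene with enough counts, in CT26 (circles), MC38 (squares) and HT29 (triangles), filled where the adjusted p was below 0.05. All 9 tested genes are below 0 in MC38, where 7 are filled, while 1 gene is filled in CT26 and 1 in HT29, both above 0.

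For Col3a1 and several other members, libraries numbered 1 to 3 were higher than those numbered 4 to 6 within each culture of MC38 and CT26. The meaning of the numbers is not stated in the labels, the split was chosen in earlier work with these data in view, and MC38 is unbalanced over it, with 2 SIS ECM and 3 cells-alone libraries numbered 1 to 3 and 3 and 2 numbered 4 to 6. Within each range all 9 tested collagens were lower with SIS ECM in MC38, with no overlap between cultures. The share of all genes without overlap within a range was not counted. Groups of 2 and 3 libraries separate easily, so nothing is read from the lack of overlap. Col3a1 averaged 2100 CPM with SIS ECM and 2770 CPM in cells alone among numbers 1 to 3, and 1220 and 1920 CPM among numbers 4 to 6. Col6a3 averaged 1150 and 1410 CPM among numbers 1 to 3, and 1010 and 1130 CPM among numbers 4 to 6. With a term for the range, Col3a1 (log2 fold change −0.52, adjusted p = 7.37e-05) and Col6a3 (−0.23, 0.00538) both passed.

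**Figure D4:**
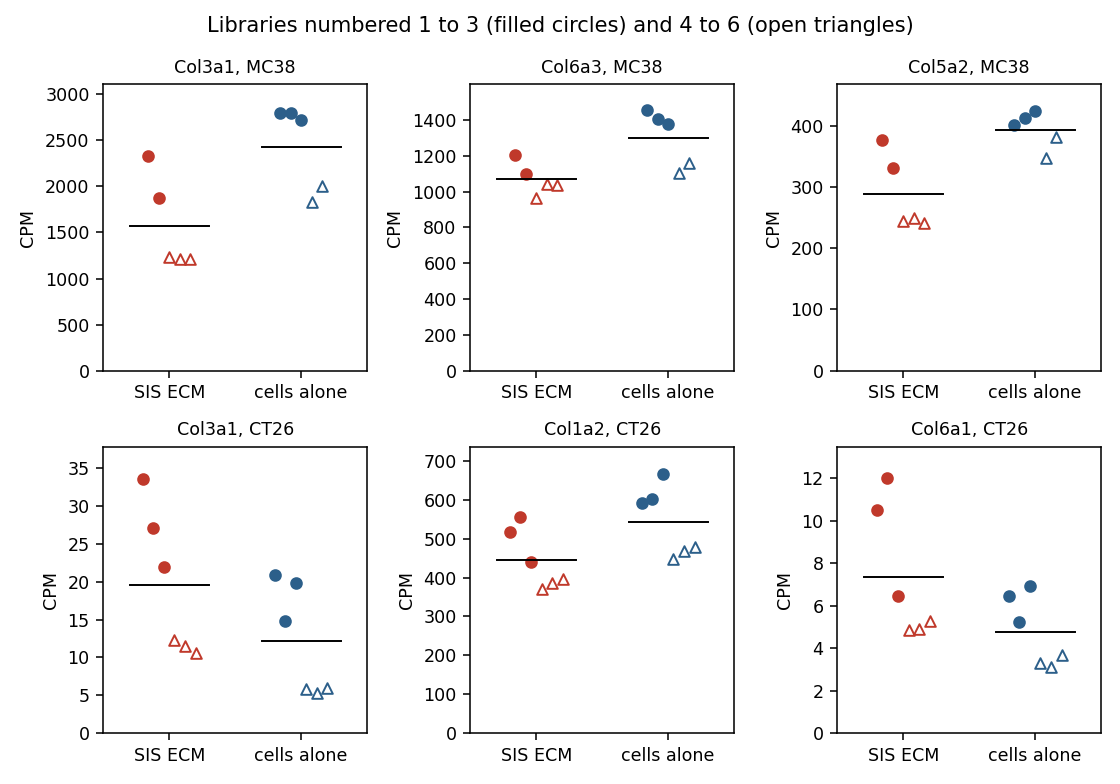
CPM per library for 3 collagen genes in MC38 and 3 in CT26, SIS ECM left of cells alone, with libraries numbered 1 to 3 as filled circles, 4 to 6 as open triangles and the group mean as a line. Within a number range, Col3a1 is lower with SIS ECM in MC38 (2100 against 2770 and 1220 against 1920 CPM) and higher in CT26 (27.5 against 18.5 and 11.5 against 5.71 CPM).

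In CT26, Col6a3 was the 1 gene of the 10 that changed with SIS ECM in the fit without a block. It rose at a low level. With the replicate block 4 of the 7 tested collagens changed, among 2281 changed genes of all 12269 tested. Of the 10 genes 7 could be tested, and without the block 1 rose and 0 fell, where 6.15% of all 12269 genes tested rose and 3.1% fell (9.25% changed in either direction). For 0 of the 7 were the cultures without overlap, where 6.94% of all genes tested had none. The median log2 fold change of the 7 was 0.12, against 0.008 over all genes tested. Col6a3 ran from 0.459 to 1.34 CPM with SIS ECM, with a median of 0.792, against 0.047 to 0.546 CPM in cells alone, with a median of 0.274. All but 1 of the 6 SIS ECM libraries exceeded every cells-alone library, and the log2 fold change was 1.70 ± 0.43 (SE; adjusted p = 0.0183). It rests on 8 to 22 counts per SIS ECM library and 1 to 9 per cells-alone library, so the gene passed the count filter through the group in which it was high. With libraries 1 to 3 alone the log2 fold change was 1.73 and no longer passed (adjusted p = 0.0592). With libraries 4 to 6 alone the gene had too few counts to be tested.

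The other measurable collagens of CT26 did not pass without a block. Col1a2, the highest of the 10 in this line per kb of exon, ran from 370 to 555 CPM with SIS ECM (median 418) against 448 to 666 CPM in cells alone (median 535), with 4 of 6 SIS ECM libraries below all cells-alone ones and a log2 fold change of −0.29 ± 0.13 (SE; adjusted p = 0.18). Col3a1 ran from 10.6 to 33.5 CPM with SIS ECM (median 17.2) against 5.30 to 20.9 CPM in cells alone (median 10.3), with a log2 fold change of 0.69 ± 0.40 (SE; adjusted p = 0.316). Col6a1 ran from 4.88 to 12.0 CPM with SIS ECM (median 5.88) against 3.12 to 6.95 CPM in cells alone (median 4.45), with a log2 fold change of 0.62 ± 0.28 (SE; adjusted p = 0.184). For these 3 genes the high libraries in both cultures were those numbered 1 to 3.

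With the replicate number as a block, the CT26 calls grew to 4 of 7 collagens (3 higher, 1 lower). Over all 12269 genes tested, 2281 changed with the block, against 1135 without it. Col3a1 then had a log2 fold change of 0.76 ± 0.12 (SE; adjusted p = 0.00144), Col6a1 of 0.60 ± 0.15 (0.0200) and Col1a2 of −0.29 ± 0.07 (0.0138). Col3a1 averaged 27.5 CPM with SIS ECM and 18.5 CPM in cells alone among libraries 1 to 3, and 11.5 and 5.71 CPM among libraries 4 to 6, with no overlap in either range. Col1a2 averaged 505 and 620 CPM among libraries 1 to 3 and 383 and 465 CPM among libraries 4 to 6, again with no overlap. How many of all genes lacked overlap within a range was not counted. In the same libraries the summed epithelial markers were 61.8 to 73.8 CPM with SIS ECM and 41.9 to 56.5 CPM in cells alone. The leukocyte markers summed to 1.56 to 10.1 and 1.23 to 2.85 CPM. Most of that sum was Cd68, at 5.73 CPM with SIS ECM and 1.92 CPM in cells alone, which was not called without a block (adjusted p = 0.0666). Ptprc averaged 0.0833 and 0.0838 CPM, and Cd3e was at 0 in both cultures. The part of these markers in the collagen values was not tested.

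The fibrillar chains of collagens I and V gave small differences in CT26. Col1a1 averaged 23.6 ± 7.34 CPM with SIS ECM and 21.7 ± 4.55 CPM in cells alone (SD, n = 6 each; log2 fold change 0.12 ± 0.19, SE; adjusted p = 0.746), and Col5a1 averaged 38.1 ± 8.69 and 36.5 ± 3.25 CPM (0.06 ± 0.13, 0.822). Col5a2 averaged 0.771 ± 0.24 CPM with SIS ECM and 0.943 ± 0.258 CPM in cells alone (−0.27 ± 0.25, 0.549). The remaining members were under the count filter: over 6 libraries Col5a3 summed to 13 counts with SIS ECM and 1 in cells alone, Col6a2 to 33 and 4, and Col12a1 to 31 and 23. Without the filter Col6a2 reached an adjusted p of 0.0505.

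In HT29 only traces of collagen mRNA were found, and COL6A1 rose with SIS ECM. Of the 10 genes 3 could be tested, 1 rose and 0 fell, where 7.75% of all 15207 genes tested rose and 5.79% fell (13.5% changed in either direction). For 0 of the 3 were the cultures without overlap, where 6.39% of all genes tested had none. The median of the 3 log2 fold changes was 0.31, against −0.005 over all genes tested. COL6A1 ran from 0.401 to 1.05 CPM with SIS ECM (median 0.87) against 0.192 to 0.452 CPM in cells alone (median 0.352). All SIS ECM libraries but the lowest exceeded every cells-alone library, and the log2 fold change was 1.31 ± 0.27 (SE; adjusted p = 0.00243), on 12 to 32 counts per SIS ECM library and 7 to 14 per cells-alone library. The gene thus passed the count filter through the group in which it was high. With libraries 4 to 6 alone the log2 fold change stayed at 1.31 but the adjusted p was 0.121.

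In the same HT29 libraries the summed smooth muscle markers were 9.8 to 12.9 CPM with SIS ECM and 13.2 to 15.3 CPM in cells alone, without overlap. TAGLN fell (log2 fold change −0.36, adjusted p = 0.00957) and ACTA2 rose (0.49, 0.0324). Of the epithelial markers, KRT20 (−0.28, 0.00124) and VIL1 (−0.23, 0.00289) fell. The others were not called, namely EPCAM (−0.02), CDH1 (−0.01), KRT8 (−0.13), KRT18 (−0.22), KRT19 (0.05) and CLDN3 (−0.12). MYH11 and CNN1, which define smooth muscle, were below 0.05 CPM, and the part of these markers in the collagen values was not tested.

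COL1A1 averaged 1.00 ± 0.214 CPM with SIS ECM and 0.915 ± 0.242 CPM in cells alone in HT29 (SD, n = 6 each), a log2 fold change of 0.13 ± 0.20 (SE; adjusted p = 0.731). COL5A2 averaged 0.582 ± 0.132 and 0.466 ± 0.0641 CPM in those cultures (0.31 ± 0.20, 0.315). The groups overlapped for both. The other 7 members were COL1A2, COL3A1, COL5A1, COL5A3, COL12A1 and the collagen VI partners COL6A2 and COL6A3. They had too few counts to be tested, at most 6 in any SIS ECM library and at most 9 in any cells-alone library. At these depths 3 counts correspond to 0.0824 to 0.114 CPM, a limit that covers counting error only. Changes in these members were thus poorly measured. Without the filter none of them passed edgeR's test in HT29 (adjusted p of at least 0.11).

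The response to SIS ECM was then compared between lines. For MC38 against CT26 (difference of log2 fold changes, all mouse libraries in 1 fit), 7 of the 10 differed, all with the lower value in MC38, where 8.27% of all genes differed. In 5 genes the cells-alone libraries of both lines averaged at least 10 counts, a limit chosen after the data were seen, and 3 of these 5 differed. They were Col1a1 (−3.36 ± 0.32, SE; adjusted p = 2.16e-07), Col6a1 (−1.30 ± 0.33, 0.0174) and Col5a1 (−0.99 ± 0.18, 0.00129). Col3a1 differed by −1.32 ± 0.49 (SE) without passing (adjusted p = 0.095), and with the replicate block by −1.30 ± 0.16 (SE; adjusted p = 0.00011), which passed. Col5a2 differed by −0.19 ± 0.29 (SE; adjusted p = 0.75). The other 4 called differences, in Col5a3, Col6a2, Col6a3 and Col12a1, rest on at most 9 counts in any CT26 cells-alone library, and that of Col5a3 (adjusted p = 0.0418) lost its call in 12 of the 22 fits that left out 1 library, with an adjusted p of up to 0.161.

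HT29 against MC38, over genes with matching symbols, gave 3 called members, where 6.1% of all genes differed. COL1A1 differed by 3.34 ± 0.37 (SE; adjusted p = 8.44e-08) and COL6A1 by 1.96 ± 0.45 (0.00394), both higher in HT29. COL12A1 was the other called gene and had at most 6 counts in any HT29 library. COL5A2 differed by 0.75 ± 0.25 (SE; adjusted p = 0.0693). The contrasts of MC38 with CT26 and with HT29 use the same MC38 libraries and are not independent of each other.

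HT29 against CT26 gave 1 called member, where 10.9% of all genes differed, namely COL6A3, which averaged at most 3.67 counts in an HT29 group. Among the 3 genes measurable in both lines 0 were called. Their differences were 0.00 ± 0.29 for COL1A1 (SE; adjusted p = 1), 0.58 ± 0.33 for COL5A2 (0.301) and 0.68 ± 0.46 for COL6A1 (0.39). With the replicate block 3 members were called, among 2024 genes that differed, against 1332 without the block. The added members were COL1A2 (−2.58 ± 1.61, SE, adjusted p = 0.0456) and COL5A3 (−4.53 ± 1.70, 0.0076). For these HT29 held at most 7 and 5 counts per library.

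Genes that modify, assemble, export, sense and degrade collagen were counted in lists chosen with earlier results known. The lists were counted only in the fits without a block or number range term. In MC38, 7 of 17 tested hydroxylation and folding genes fell and 0 rose (median log2 fold change −0.25, against 0.006 over all genes), including the lysyl hydroxylase genes Plod3 (72.6 ± 2.74 CPM with SIS ECM, 95.7 ± 6.80 CPM in cells alone) and Plod1 (54.8 ± 1.85 and 76.5 ± 8.83 CPM) and the collagen chaperone gene Fkbp10 (82.6 ± 2.22 and 113 ± 9.97 CPM; SD, n = 5 each). Of 15 cross-linking and fibril assembly genes 6 fell and 0 rose in MC38, led by the asporin gene Aspn (log2 fold change −2.41 ± 0.21, SE; adjusted p = 4.96e-05), the periostin gene Postn (−1.40 ± 0.13, 8.52e-05) and the biglycan gene Bgn (−0.95 ± 0.10, 0.00017). Of 13 other collagens 7 fell and 1 rose, with Col28a1 (−2.49 ± 0.22, 3.02e-05), the basement membrane collagen Col18a1 (−0.64 ± 0.06, 9.52e-05) and Col16a1 (−0.56 ± 0.08, 0.00139) among those that fell. The shares of all tested genes in MC38 were 5.36% lower, 3.82% higher and 9.17% changed, and the other 10 hydroxylation and folding genes and 5 other collagens were not called.

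Of 12 degradation genes tested in MC38 2 rose and 1 fell, the collagenase gene Mmp13 averaging 4.42 ± 0.59 CPM with SIS ECM and 1.62 ± 0.304 CPM in cells alone (SD, n = 5 each; log2 fold change 1.46 ± 0.16, SE) and Mmp14, a membrane collagenase, 237 ± 18.1 and 180 ± 26.3 CPM (0.39 ± 0.10), while the protease gene Fap fell by 0.73 ± 0.11 on the log2 scale. Receptors counted 1 higher and 2 lower of 11, with the integrin gene Itga2 rising (0.58 ± 0.14, SE) and Adgrg1 and Cspg4 falling (−0.85 ± 0.10 and −0.57 ± 0.13). Export and propeptide removal counted 1 lower of 10 (the propeptidase enhancer gene Pcolce2, −0.34 ± 0.10). Regulators of collagen transcription counted 1 lower of 16, the inhibitory SMAD gene Smad7 (−0.36 ± 0.07). Counts of 1 in 10 or 1 in 16 are near the 9.17% of all tested genes that changed, and nothing is read from them.

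In CT26, none of the 15 tested hydroxylation and folding genes, 9 export genes or 16 regulators passed edgeR's test without a block. Their medians were 0.10, 0.03 and 0.04 against 0.008 over all genes. The lists were not counted with the replicate block, which gave more calls over all genes in this line. Degradation genes counted 4 higher and 0 lower of 8, among them Mmp13 (121 ± 20.6 CPM with SIS ECM, 7.60 ± 2.74 CPM in cells alone; SD, n = 6 each; log2 fold change 3.99 ± 0.19, SE), Mmp14 (0.48 ± 0.10) and the cathepsin gene Ctsb (0.47 ± 0.11). Cross-linking and assembly counted 3 higher and 2 lower of 11: the lysyl oxidase gene Loxl3 (0.51 ± 0.11), Dcn (0.65 ± 0.16) and the transglutaminase gene Tgm2 (1.12 ± 0.28) rose, and Aspn (−0.79) and Sparc (−0.34), named after their values were seen, fell. Receptors counted 1 of 8, Antxr1 rising (0.68 ± 0.14), and other collagens 1 of 10, the fibrillar collagen Col24a1 rising (1.20 ± 0.22); both counts are near the 9.25% of all tested genes that changed (6.15% rose).

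In HT29, cross-linking and assembly counted 4 higher and 0 lower of 7 (median 0.72 against −0.005 over all genes), with the fibronectin gene FN1 averaging 6.96 ± 1.35 CPM with SIS ECM and 2.28 ± 0.228 CPM in cells alone (SD, n = 6 each; log2 fold change 1.60 ± 0.13, SE), TGM2 rising by 0.77 ± 0.06 and the lysyl oxidase gene LOXL1 by 0.72 ± 0.06. Other collagens counted 4 higher and 1 lower of 10, with COL16A1 (0.52 ± 0.05), COL9A3 (0.57 ± 0.06) and COL13A1 (1.00 ± 0.14) rising. Hydroxylation and folding counted 3 higher and 0 lower of 16, with COLGALT1 (0.22 ± 0.04), PLOD2 (0.33 ± 0.07) and P4HA1 (0.21 ± 0.06). Export counted 1 higher and 3 lower of 10, with the procollagen export receptor gene MIA3 falling (−0.29 ± 0.04). Regulators counted 4 higher and 1 lower of 15, with RUNX2 rising (0.37 ± 0.06) and CCN2 falling (−0.58 ± 0.13). Receptors counted 1 higher and 1 lower of 9, and degradation 2 higher and 0 lower of 8. Over all tested genes in HT29 7.75% rose and 5.79% fell, 13.5% in all, and with so few genes a list the counts for receptors, degradation and hydroxylation are not read as apart from that share.

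**Figure D5:**
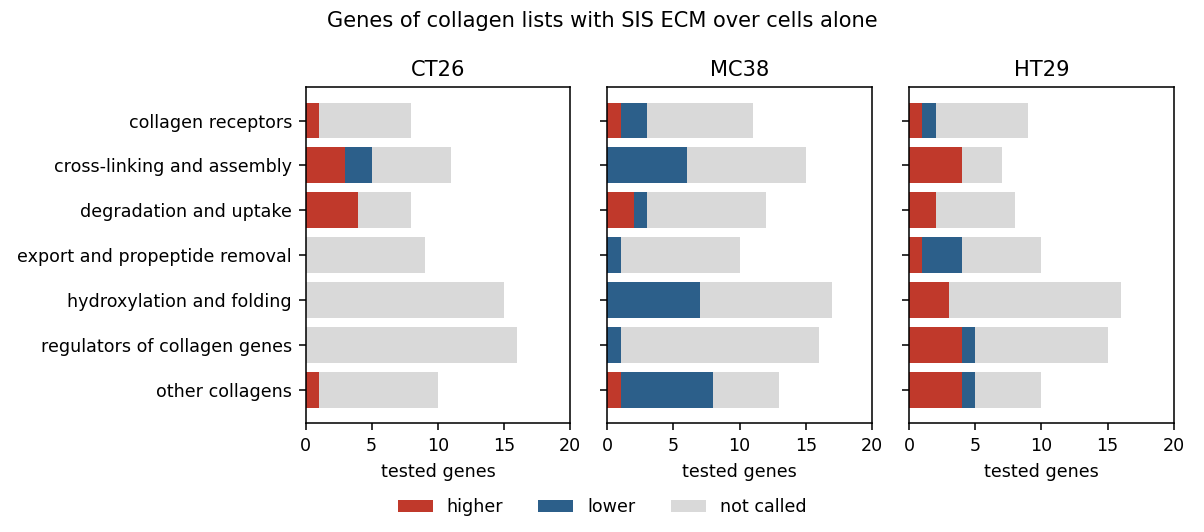
Number of tested genes in 7 lists of collagen-related genes that were higher (red), lower (blue) or not called (grey) with SIS ECM over cells alone, in CT26, MC38 and HT29. In the fits without a block, hydroxylation and folding counts 7 of 17 lower in MC38, none of 15 called in CT26 and 3 of 16 higher in HT29.

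The genes whose log2 CPM followed the most heavily counted member most closely over the libraries of a line were listed as a description, since all points share their libraries and depth. In MC38, over 10 libraries and 9897 genes, Ezr (Pearson r = 0.997), Cilp (0.990), Bace2 (0.986), Htra1 (0.984) and Lama4 (0.983) were nearest to Col3a1. In CT26, over 12 libraries, Slc3a2 (0.983), Eif4g1 (0.982), Aldh18a1 (0.979) and Myo1c (0.972) were among the nearest to Col1a2. For COL1A1 in HT29 the nearest gene, CRAMP1, reached 0.870.

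The authors' deposited table of log2 fold changes and adjusted p-values lists all 10 genes in MC38, with 7 below 0.05 and all 7 lower with SIS ECM. In CT26 the authors' deposited table has 2 of the 10 below 0.05, Col6a2 (2.17, adjusted p = 0.011) and Col6a3 (1.12, adjusted p = 0.0346), both higher with SIS ECM. In HT29 COL1A1 is the 1 member in the authors' deposited table (0.04, adjusted p = 0.918).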

How the data were processed

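PolyA RNA libraries of the 3 lines were pooled within species and sequenced as read pairs after a stranded preparation, per the labels. The submitters' processing notes name cutadapt 1.18, STAR 2.7.0f, RSEM 1.3.1, limma and the builds mm10 and hg38, without saying which step each served. The authors deposited expected counts per gene, which were not normalised; they were rounded before testing. The authors also deposited log2 fold changes and adjusted p-values per gene; 34 per-sample columns in those tables were not used. All 55450 mouse identifiers matched GENCODE; human coordinates and exon lengths were not used here.

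Genes were filtered with filterByExpr (minimum count 10), scaled by TMM (mouse factors 0.917 to 1.084, human factors 0.972 to 1.032) and tested with edgeR 4.0.16 (R 4.3.3) by the two-sided quasi-likelihood F test. All adjusted p-values are Benjamini-Hochberg values over all genes tested in a fit, called below 0.05. SE is the quasi-likelihood standard error. Each line was fitted alone. MC38 was set against CT26 in 1 mouse fit of 4 groups. HT29 was set against the mouse lines over 16667 matching symbols, with TMM set within species. CPM values are TMM-scaled. The scripts were tested on simulated data. The members, gene lists, tests and number ranges were chosen with earlier results of these data known. All 10 members were named, with up to 3 called genes of smallest adjusted p per list and line.

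Replicate numbers come from the labels. Deviations of libraries with the same number correlated at 0.222 to 0.484 over 6 pairs in CT26 and at 0.188 to 0.321 over 4 pairs in MC38, so the numbers were taken to pair these libraries, from the data and not from a stated design. Libraries with different numbers correlated at −0.517 to 0.582 in CT26 and −0.392 to 0.313 in MC38, so the ranges overlapped. Of the pairs, 1 of 6 in CT26 and 2 of 4 in MC38 correlated best with their own number. Pairing by number is thus an assumption of the blocked fits. Blocked values are printed where they change a call. In 80 pairs of libraries of a group, 0 were identical, and the chi-square per degree of freedom was 1.89 to 137. Alternatives were DESeq2 1.42.0 size factors and Wald test, limma 3.58.1 with voom, no filter, the replicate block, a number range term, each range alone and leaving out each library.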

Additional observations from a re-analysis of the deposited data

Results flagged for a closer look

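In cells-alone CT26 library 3, Col1a1 reached 30.2 CPM, apart from the other 5 libraries, of which the next was at 22 CPM. It was the 1 group with a library so far from its others among 37 groups of a member with a mean count of at least 10. Chance gives about 1 in 20 of such groups, so 1 among 37 is no more than chance gives, and nothing is read from it.

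The response to SIS ECM differed between MC38 and CT26, as a difference of log2 fold changes with an adjusted p below 0.05, for Col1a1 (−3.36), Col6a1 (−1.30) and Col5a1 (−0.99), each lower in MC38. It differed between HT29 and MC38 for COL1A1 (3.34) and COL6A1 (1.96), each higher in HT29. Genes averaging under 10 counts in the cells-alone libraries of a line were left out of these lists.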

How the results depend on the processing

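No direction of a called value turned under any alternative run. The replicate block gave 2281 changed genes and 4 collagens in CT26, and 2024 and 3 for HT29 against CT26; in HT29, where the numbers did not pair the libraries (correlations from −0.096 to 0.065), COL6A1 had a log2 fold change of 1.28 with it. Beside Col1a2, Col3a1 and Col6a1 in CT26, Col3a1 in MC38 and between the mouse lines, and COL1A2 and COL5A3 for HT29 against CT26, it changed no other member's call. No paired analysis was possible for MC38 against CT26 cells alone because the block could not be fitted. The number range term gave 3545 genes and 4 collagens in CT26, 3246 genes in MC38, 3740 for MC38 against CT26, 2807 genes and 2 collagens for HT29 against CT26, and 1867 genes for HT29 against MC38. Libraries 1 to 3 alone gave 2484 genes and 0 collagens in CT26, 5287 in MC38 and 719 in HT29. Libraries 4 to 6 alone gave 2333 and 3 (Col1a2, Col3a1 and Col6a1) in CT26, 2318 in MC38, and 417 and 0 in HT29. The cause of these moves was not tested. Leaving out 1 library gave 626 to 1948 genes (6 to 9 collagens) in MC38, with 648, 626, 663 and 1948 without cells-alone libraries 1, 2, 3 and 4 and 724 and 742 without SIS ECM libraries 4 and 6. It gave 0 to 2 collagens for HT29 against CT26 (0 without HT29 cells-alone library 1, 2 without CT26 SIS ECM library 4 or 5, MC38 cells-alone library 4 or MC38 SIS ECM library 1) and 491 to 917 genes for HT29 against MC38 (491 without MC38 cells-alone library 1). DESeq2 size factors, the DESeq2 Wald test, limma with voom and no filter kept each count within 1.5 times. In MC38, Col6a3 passed under the DESeq2 Wald test (log2 fold change −0.28, adjusted p = 0.0257). Col3a1 passed there in edgeR's test with no filter (−0.62, 0.0336). Depth limits the members under about 10 counts per library.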
